A study of Mus musculus with 22 samples.

Results

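Nkx1-2, Cdx1, Cdx2, Evx1 and Sp8 encode transcription factors of the posterior embryo, and their mRNA levels are described here across 22 cultures of mouse embryonic stem (ES) cells. The 5 genes were found by their symbol among probe sets annotated to 1 gene, out of 18193 genes measured, and they had 8 probe sets in all. Each gene was read from its brightest probe set, judged by the mean of all 22 arrays. The genes were put together with their differences between the culture arms already known, so those differences are given below as values with errors and without a test. Sp8 has no homeobox: it encodes a zinc finger protein of the Sp family, and the other 4 encode homeodomain proteins.

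The cells were Rex1GFPd2 ES cells, a mouse line with a destabilised green fluorescent protein reporter of Rex1, grown without serum in N2 and B27 supplemented medium, and every group received PD0325901 (PD), which blocks the kinase MEK. There were 8 cultures with siRNA against YAP and TAZ in medium with PD alone (4 with siRNA 1 and 4 with siRNA 2), 7 with control siRNA in 2i medium, which holds PD and CHIR99021 (4 with control siRNA 1 and 3 with control siRNA 2), and 7 with control siRNA in medium with PD alone (4 and 3). CHIR99021 inhibits the kinase GSK3, which marks beta-catenin, the effector of Wnt signalling, for destruction. Cells in PD alone had been moved out of 2i 24 hours after transfection, and all were harvested at 72 hours. YAP/TAZ siRNA in 2i was not analysed here.

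Caudal (Cdx) proteins are homeodomain factors of the primitive streak and tail bud that activate Hox genes and support growth of the trunk and tail, and in mouse Cdx1 and Cdx2 are known targets of Wnt signalling. Nkx1-2 (also called Sax1) is known from the caudal epiblast and the pre-neural tube beside it, where progenitors of spinal cord and mesoderm lie. Evx1, a relative of the fly gene even-skipped at the end of the HoxA cluster, is expressed in the primitive streak and later in spinal interneurons, and Sp8 is expressed in the tail bud, the limb ectodermal ridge and the forebrain. Cdx2 is also known for trophectoderm, and both Cdx1 and Cdx2 for intestinal epithelium.

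The promoter windows below are those of Nkx1-2, which differed most between the arms, of Sp8, which ordered the arms in another way, and of the caudal gene Cdx2. They are RefSeq sequences of GRCm38.p6 from 250 bases before to 50 bases after an annotated start, read on the gene's strand. Nkx1-2 lies at chr7:132599588-132599887 (minus strand), Cdx2 at chr5:147307200-147307499 (minus strand) and the second of 3 Sp8 windows at chr12:118846983-118847282 (plus strand). Capitals mark matches to the 3 motifs searched on both strands: the heptamer CTTTGAA, the heptamer CTTTGAT, the heptamer CTTTGTA or the heptamer CTTTGTT for TCF/LEF, the DNA-binding partners of beta-catenin, GGAATG for TEAD, the DNA-binding partners of YAP and TAZ, and TTTATNG for CDX proteins.
Nkx1-2: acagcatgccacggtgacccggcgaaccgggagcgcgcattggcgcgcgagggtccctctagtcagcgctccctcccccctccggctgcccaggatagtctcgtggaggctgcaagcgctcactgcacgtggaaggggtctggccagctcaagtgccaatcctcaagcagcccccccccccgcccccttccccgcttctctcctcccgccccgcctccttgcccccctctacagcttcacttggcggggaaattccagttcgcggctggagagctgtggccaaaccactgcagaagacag
Cdx2: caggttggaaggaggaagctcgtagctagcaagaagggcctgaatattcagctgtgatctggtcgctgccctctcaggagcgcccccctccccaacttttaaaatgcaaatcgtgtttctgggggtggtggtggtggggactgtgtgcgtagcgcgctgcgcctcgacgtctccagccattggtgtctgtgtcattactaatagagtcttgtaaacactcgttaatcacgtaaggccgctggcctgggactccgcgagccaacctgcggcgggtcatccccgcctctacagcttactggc
Sp8: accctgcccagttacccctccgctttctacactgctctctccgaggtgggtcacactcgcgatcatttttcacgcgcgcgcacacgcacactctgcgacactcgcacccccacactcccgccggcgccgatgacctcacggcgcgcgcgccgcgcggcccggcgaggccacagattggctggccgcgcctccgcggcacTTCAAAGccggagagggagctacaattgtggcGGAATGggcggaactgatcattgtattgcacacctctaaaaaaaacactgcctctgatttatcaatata

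The Nkx1-2 and Cdx2 windows held none of the 3 motifs. The Sp8 window held 1 TCF/LEF match beginning 51 bases before the start, read as TTCAAAG on the strand shown, and 1 TEAD match beginning 19 bases before it. The other 2 Sp8 windows and the single Evx1 window held 1 CDX match each and no other. These letters are common: of 32851 promoter windows of the same length, 16.9% held the TCF/LEF motif, 14.7% the TEAD motif and 10.9% the CDX motif. No match of the 3 motifs overlapped another in the windows shown. The windows differed more in base composition: G and C made up 67.3% of the Nkx1-2 window, 57.3% of the Cdx2 window and 61% of the Sp8 window shown. These held 21, 18 and 32 CpG dinucleotides, against a median of 52.7% and 7 CpG over all windows. The other 2 Sp8 windows had 43% and 53% G and C with 2 and 10 CpG, and the Evx1 window 48.7% with 12 CpG.

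Nkx1-2 had the widest range of the 5 genes. On the log2 scale of the deposited values, its probe set 1422050_at read 8.95 at the lowest, 9.09 at the median and 9.14 at the highest of the 8 YAP/TAZ siRNA arrays in PD-only, and 8.72, 8.84 and 8.89 over the 7 control arrays in 2i. It read 3.35, 3.44 and 3.69 over the 7 control arrays in PD-only. The 3 arms did not overlap, and all 15 arrays of the upper arms lay far above the 7 of the PD-only controls. The level was 5.60 ± 0.04 (SE of the model) higher with YAP/TAZ siRNA than with control siRNA in PD-only, 48.6-fold, and 5.36 ± 0.04 higher in 2i than in PD-only controls, 41.2-fold. With YAP/TAZ siRNA it stood 0.24 ± 0.04 above the 2i controls, 1.18-fold. No detection call comes with the values, and a probe set near the low end of the array (the lowest value in the table was 2.09) gives a fold of uncertain size.

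The other 2 probe sets of Nkx1-2 differed the same way by far less. Probe set 1422049_at averaged 5.40 ± 0.14 with YAP/TAZ siRNA, 5.35 ± 0.18 in 2i controls and 4.82 ± 0.16 in PD-only controls (SD, n = 8, 7 and 7). Its difference was 0.59 ± 0.07 for YAP/TAZ siRNA against the PD-only controls and 0.52 ± 0.07 for 2i against them. Probe set 1426177_a_at gave 0.32 ± 0.07 and 0.20 ± 0.07 for the same contrasts. The upper arms overlapped each other on both of these probe sets, and on 1426177_a_at each of them also overlapped the PD-only controls. Averaging the 3 probe sets of the gene gave 2.17 for YAP/TAZ siRNA and 2.03 for 2i, so the size of the Nkx1-2 difference rests on 1 probe set, while its direction was the same on all 3.

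**Figure D1:**
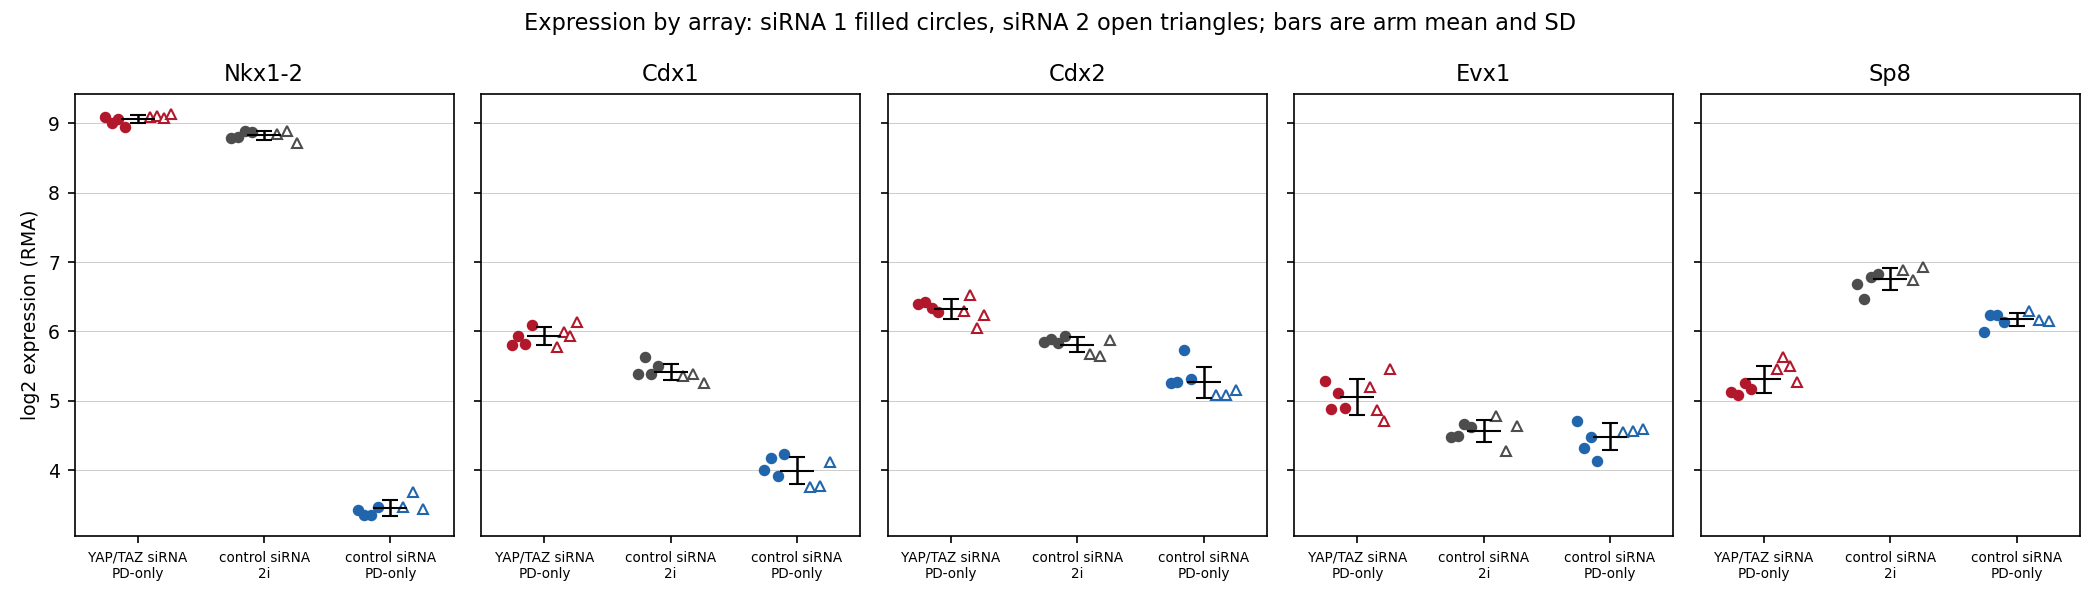
Log2 expression (y axis) of the 5 genes in each of the 22 arrays, by arm (x axis), with YAP/TAZ siRNA in PD-only at the left of each panel, 2i controls in the middle and PD-only controls at the right. Filled circles are siRNA 1, open triangles siRNA 2, and black bars the arm mean ± SD; Nkx1-2 sits near 9.07 and 8.83 in the upper arms and at 3.45 in PD-only controls, and Sp8 is highest in 2i controls.

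**Figure D2:**
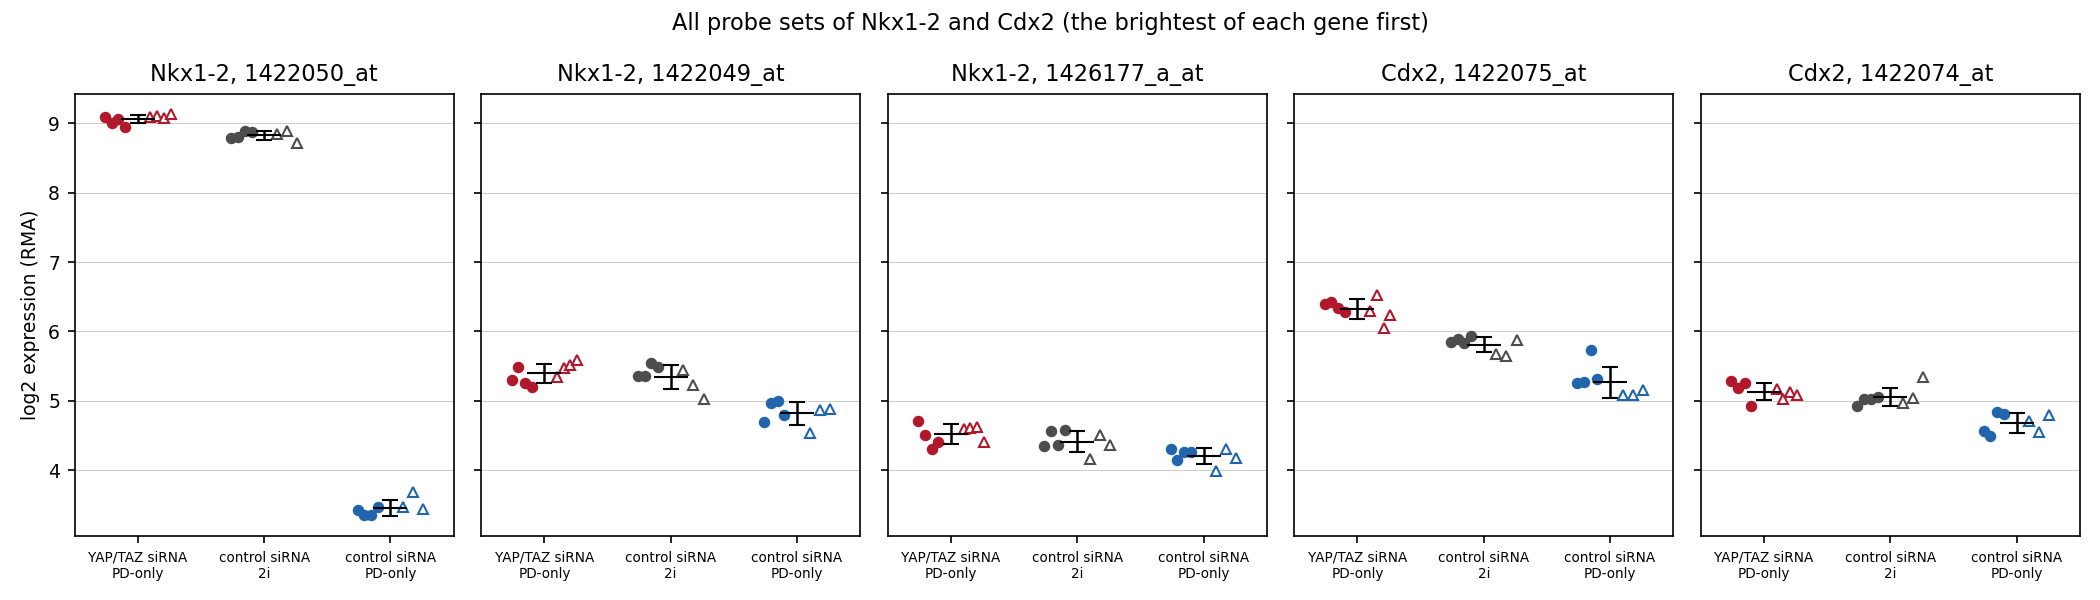
Log2 expression (y axis) by arm (x axis) for the 3 probe sets of Nkx1-2 and the 2 of Cdx2, the brightest of each gene first, with symbols as in the plot of expression by array. Nkx1-2 differs by 5.60 between YAP/TAZ siRNA and PD-only controls on its brightest probe set and by 0.59 and 0.32 on the others.

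Cdx1, the caudal gene best known as a direct Wnt target, lies at chr18:61018862-61036199 (GRCm38.p6) and had 1 probe set. It read 5.77, 5.93 and 6.14 (lowest, median and highest) with YAP/TAZ siRNA, 5.25, 5.38 and 5.63 in 2i controls, and 3.75, 4.0 and 4.23 in PD-only controls. The arms stood in this order without overlap. Cdx1 was 1.96 ± 0.07 higher with YAP/TAZ siRNA than with control siRNA in PD-only (3.88-fold) and 1.42 ± 0.07 higher in 2i than in PD-only controls (2.68-fold). YAP/TAZ siRNA exceeded 2i by 0.53 ± 0.07 (1.45-fold).

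Cdx2, the caudal gene of trophectoderm and intestine, lies at chr5:147300900-147307249. It read 6.05, 6.32 and 6.53 with YAP/TAZ siRNA, 5.64, 5.84 and 5.93 in 2i controls, and 5.08, 5.26 and 5.73 in PD-only controls. YAP/TAZ siRNA arrays lay above all others, and the 2 control arms overlapped through 1 PD-only array at 5.73, the next PD-only array being at 5.31. The differences were 1.07 ± 0.07 for YAP/TAZ siRNA against PD-only controls (2.10-fold), 0.55 ± 0.07 for 2i against PD-only controls (1.47-fold) and 0.52 ± 0.07 for YAP/TAZ siRNA against 2i controls (1.43-fold). Without the array at 5.73 the first 2 were 1.13 ± 0.06 and 0.61 ± 0.06, and the control arms no longer overlapped. On the second probe set, 1422074_at, Cdx2 differed by 0.45 ± 0.07, 0.38 ± 0.07 and 0.07 ± 0.07 in the same 3 contrasts, so the excess over 2i was small there. With the mean of both probe sets it was 0.29.

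Evx1 lies at chr6:52313498-52318389, beside the HoxA cluster. It read 4.71, 5.0 and 5.46 with YAP/TAZ siRNA, 4.28, 4.62 and 4.78 in 2i controls, and 4.13, 4.55 and 4.71 in PD-only controls. The 2 control arms covered nearly the same range, and the lowest YAP/TAZ siRNA array reached into it. Evx1 was 0.56 ± 0.11 higher with YAP/TAZ siRNA than with control siRNA in PD-only (1.48-fold) and 0.49 ± 0.11 higher than in 2i controls (1.40-fold). Its 2i difference from PD-only controls, 0.07 ± 0.11, was smaller than its SE and came out at 0.15 ± 0.12 with control siRNA 1 alone and at -0.00 ± 0.18 with control siRNA 2 alone.

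Sp8 lies at chr12:118846288-118852578 and differed in order from the homeodomain genes. It read 5.08, 5.26 and 5.63 with YAP/TAZ siRNA, 6.46, 6.78 and 6.93 in 2i controls, and 5.99, 6.17 and 6.29 in PD-only controls. No array of 1 arm reached another arm, with 2i at the top and YAP/TAZ siRNA at the bottom. The log2 difference of Sp8 was -0.87 ± 0.06 for YAP/TAZ siRNA against control siRNA in PD-only (1.82-fold lower), 0.60 ± 0.06 for 2i against PD-only controls (1.51-fold higher) and -1.46 ± 0.06 for YAP/TAZ siRNA against 2i controls (2.75-fold lower).

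Arms without any overlap between arrays were frequent over the whole array set. All YAP/TAZ siRNA arrays lay above all PD-only controls for Nkx1-2, Cdx1 and Cdx2, as they did for 21.1% of all genes, and below them for Sp8, as for 19.3%. In 2i against PD-only controls, Nkx1-2, Cdx1 and Sp8 were higher without overlap (18.7% of all genes), and 0 of the 5 were lower (19%). Against 2i controls, YAP/TAZ siRNA arrays were higher without overlap for Nkx1-2, Cdx1 and Cdx2 (14.9% of all genes) and lower for Sp8 (13.3%). The contrasts share their arrays, and these counts describe the values that led to the choice of the genes.

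**Figure D3:**
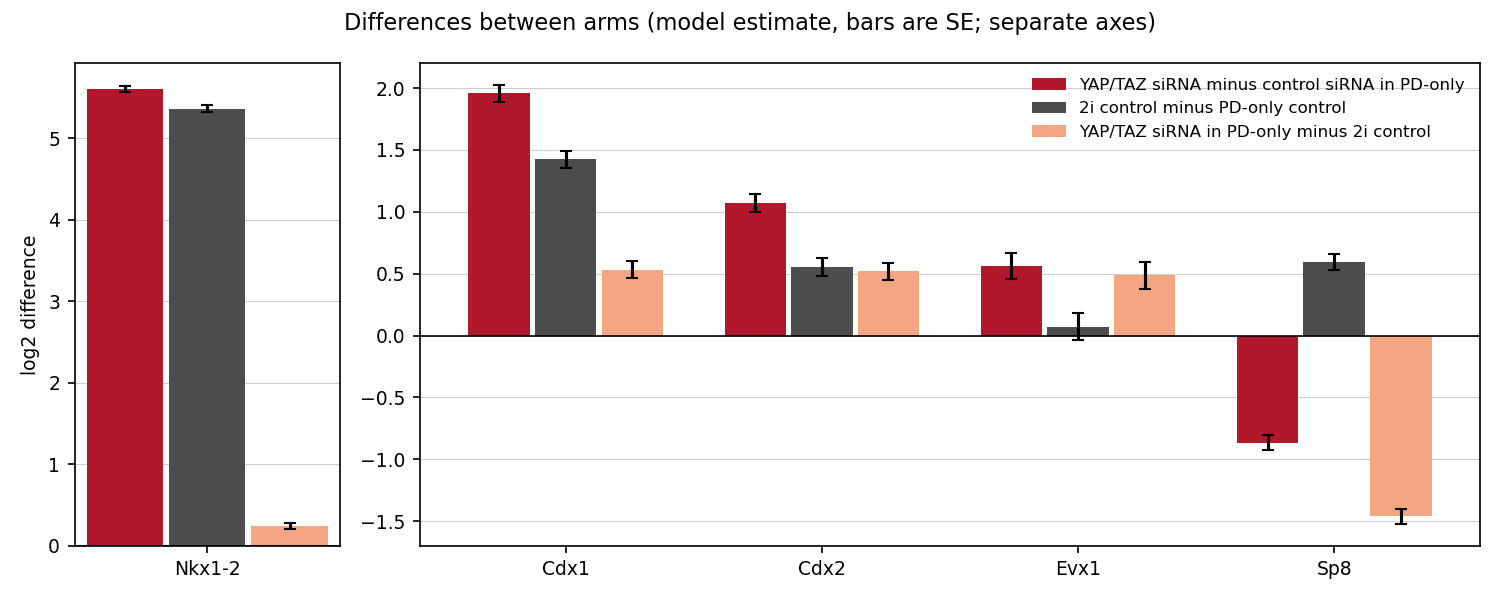
Model estimates of the log2 difference (y axis) with SE for each gene (x axis) in 3 contrasts: YAP/TAZ siRNA against control siRNA in PD-only (red), 2i against PD-only controls (grey) and YAP/TAZ siRNA against 2i controls (orange). Nkx1-2 has its own axis; Sp8 is at -0.87, 0.60 and -1.46, the only one of the 5 with estimates of opposite sign in the first pair.

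The choice of the genes did not use the single siRNAs, so the difference between them was tested with limma over all genes. Between the 2 YAP/TAZ siRNAs in PD-only, Nkx1-2 differed by 0.08 ± 0.05, Cdx1 by 0.05 ± 0.09, Cdx2 by -0.08 ± 0.10 and Evx1 by 0.02 ± 0.15 (siRNA 2 minus siRNA 1; adjusted p = 1 for each). Sp8 stood 0.31 ± 0.08 higher with siRNA 2, where the 4 arrays read 5.27 to 5.63, than with siRNA 1, where they read 5.08 to 5.25. Its unadjusted p was 0.00132 and its adjusted p 1. Against the PD-only control of the same number, Sp8 stood at -0.99 with siRNA 1 alone and at -0.74 with siRNA 2 alone.

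Between the 2 control siRNAs in PD-only, the 5 genes differed by -0.29 ± 0.10 (Cdx2) to 0.16 ± 0.16 (Evx1), with an adjusted p of 1 for each. In 2i they differed by -0.15 ± 0.10 (Cdx2) to 0.17 ± 0.09 (Sp8), and the lowest adjusted p was 0.679. The difference between media with control siRNA 2 departed from that with control siRNA 1 by -0.16 ± 0.08 for Nkx1-2, and by less relative to its error for each of the other 4 (lowest adjusted p = 0.953). In these 4 tests limma called 0 of 18193 genes (0%). An unadjusted p below 0.05 was found for 649, 769, 1450 and 949 genes (3.57%, 4.23%, 7.97% and 5.22%). The highest of these shares was that between the control siRNAs in 2i. With a mean trend and robust prior, limma called 1 gene in the second test and 2 in the third.

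Of the paralogs of the 5 genes, 5 were measured: 1 rose and 2 fell with YAP/TAZ siRNA in PD-only, where 35.5% of all genes rose and 26.3% fell, and 1 rose and 1 fell in 2i against PD-only controls, where 31.3% rose and 26.7% fell. Sp5, an Sp family factor known as a direct Wnt target, averaged 7.66 ± 0.14 with YAP/TAZ siRNA, 7.04 ± 0.12 in 2i controls and 5.52 ± 0.20 in PD-only controls (SD), in the order seen for Cdx1 and not for Sp8. It rose by 2.13 ± 0.07 with YAP/TAZ siRNA in PD-only (adjusted p = 4.59e-16) and by 1.5 ± 0.07 in 2i (adjusted p = 3.51e-13). Sp6, a factor of the limb ridge and tooth, fell by 0.79 ± 0.07 and by 0.54 ± 0.07 in the same contrasts (adjusted p = 1.43e-09 and 8.94e-07); averaged over its probe sets it fell by 0.21 and by 0.14. Cdx4, the third caudal gene, averaged 2.70 ± 0.08, 2.95 ± 0.17 and 2.95 ± 0.22, near the low end of the array. It was called lower with YAP/TAZ siRNA (-0.25 ± 0.08, adjusted p = 0.0141), a call lost without 1 PD-only array of control siRNA 2 (adjusted p = 0.052) and with siRNA 1 alone (-0.17, adjusted p = 0.244). Evx2 (0.08 ± 0.06 and 0.13 ± 0.06) and Sp7 (0.06 ± 0.07 and 0.02 ± 0.07) did not pass the test in either contrast, and Nkx1-1 and Sp9 were not analysed here.

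Cdx proteins are known to activate Hox genes. Of 33 measured, 6 (18.2%) rose and 4 (12.1%) fell with YAP/TAZ siRNA in PD-only, against 35.5% and 26.3% of all genes, with a median log2 difference of 0.048 against 0.061 over all genes. In 2i against PD-only controls, 10 (30.3%) rose, a share near the 31.3% of all genes, and 1 (3.03%) fell, against 26.7% (median 0.1 against 0.044). Against 2i controls, 1 rose and 7 fell with YAP/TAZ siRNA (25.5% and 22.8% of all genes; median -0.012 against 0.015). As a list the Hox genes were dim. Their array mean was 4.405 to 4.514 with YAP/TAZ siRNA, 4.543 to 4.63 in 2i controls and 4.383 to 4.475 in PD-only controls. The median gene stood at 6.64, and shares called among genes of like level were not compared. A few Hox genes followed the order of Sp8. Hoxd8 averaged 5.13 ± 0.19 with YAP/TAZ siRNA, 6.21 ± 0.10 in 2i controls and 5.85 ± 0.08 in PD-only controls, with no overlap between arms: it fell by 0.73 ± 0.07 with YAP/TAZ siRNA (adjusted p = 1.5e-08) and rose by 0.35 ± 0.07 in 2i (adjusted p = 0.00031).

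Hoxd1, of the same cluster, fell by 0.39 ± 0.08 with YAP/TAZ siRNA and rose by 0.75 ± 0.08 in 2i (adjusted p = 0.000226 and 8.97e-08). With a covariate for the Actb 3′ minus 5′ signal, a measure of RNA quality, its values were -0.60 and 0.54, and Hoxd8 with control siRNA 2 alone was 0.34 higher in 2i (adjusted p = 0.0665). Hoxd9 fell by 0.36 ± 0.04 with YAP/TAZ siRNA (adjusted p = 1.57e-07) and stood at 0.04 ± 0.04 in 2i, short of the test. Hoxc4 rose by 1.22 ± 0.06 and Hoxc13 by 0.68 ± 0.06 in 2i (adjusted p = 9.89e-13 and 4.9e-09), against 0.41 ± 0.06 and -0.07 ± 0.06 with YAP/TAZ siRNA. The Hoxc4 value with YAP/TAZ siRNA lost its call with the Actb covariate (0.27 ± 0.12, adjusted p = 0.0625). The Actb signal was 0.66 to 0.75 over PD-only controls, 0.87 to 1.19 over 2i controls and 0.88 to 1.07 with YAP/TAZ siRNA. PD-only controls thus did not overlap the other arms, so the signal and the arm cannot be told apart. The covariate also widened the SE, here and for the calls lost with it below. Hoxa13 and Hoxa11, the coding genes next to Evx1 on 1 side, stood at -0.01 ± 0.09 and 0.00 ± 0.06 with YAP/TAZ siRNA, and did not pass the test.

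**Figure D4:**
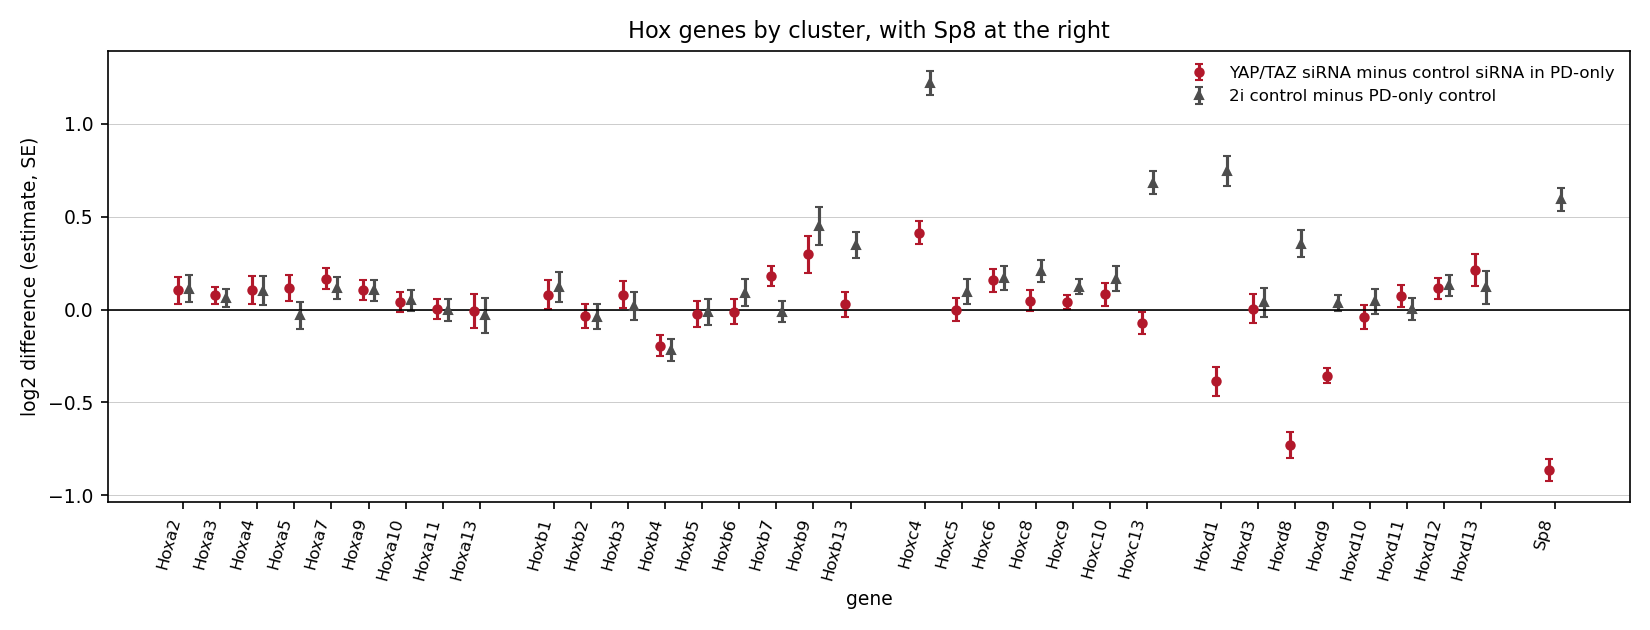
Log2 differences with SE (y axis) of the 33 Hox genes, grouped by cluster, and of Sp8 at the right (x axis), for YAP/TAZ siRNA against control siRNA in PD-only (red circles) and 2i against PD-only controls (grey triangles). Hoxd1 (-0.39 and 0.75), Hoxd8 (-0.73 and 0.35) and Sp8 (-0.87 and 0.60) are low with YAP/TAZ siRNA and high in 2i.

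A list of other genes of the primitive streak, tail bud and presomitic mesoderm had 24 measured genes. It was dim against the median gene at 6.64. Its array mean was 4.987 to 5.09 with YAP/TAZ siRNA, 4.85 to 4.93 in 2i controls and 5.123 to 5.214 in PD-only controls. Genes of like level were not compared. With YAP/TAZ siRNA in PD-only, 7 (29.2%) rose and 8 (33.3%) fell, not far from the 35.5% and 26.3% of all genes (median 0.019). In 2i against PD-only controls, 1 (4.17%) rose and 11 (45.8%) fell, against 31.3% and 26.7% of all genes (median -0.141). With YAP/TAZ siRNA against 2i controls, 6 rose and 0 fell, against 25.5% and 22.8% of all genes (median 0.054). Cyp26a1, which degrades retinoic acid in the tail bud, fell by 1.40 ± 0.09 with YAP/TAZ siRNA and by 1.37 ± 0.10 in 2i (adjusted p = 4.83e-11 and 1.51e-10). The Notch ligand gene Dll3 fell by 0.90 ± 0.08 and by 1.26 ± 0.09. Fgf8, a signal of the tail bud that maintains the caudal progenitors, fell by 0.68 ± 0.08 in 2i (adjusted p = 5.18e-07) and by 0.42 ± 0.08 with YAP/TAZ siRNA (adjusted p = 0.000142, or 0.156 with the Actb covariate). Wnt3a, the tail bud Wnt, was at 0.02 ± 0.06 and 0.03 ± 0.06 and did not pass the test. Brachyury (T) was not analysed here.

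A list of anterior neural and head genes, mostly homeobox genes, had 15 measured genes and held Gbx2, described below. As a list these genes were dim against the median gene at 6.64. Their array mean was 5.114 to 5.239 with YAP/TAZ siRNA, 4.687 to 4.789 in 2i controls and 5.181 to 5.219 in PD-only controls. Shares called among genes of like level were not compared. With YAP/TAZ siRNA, 2 (13.3%) rose and 3 (20%) fell, against 35.5% and 26.3% of all genes (median -0.058). In 2i, 2 (13.3%) rose and 6 (40%) fell, against 31.3% and 26.7% of all genes (median -0.076). With YAP/TAZ siRNA against 2i controls, 5 (33.3%) rose and 1 (6.67%) fell, against 25.5% and 22.8% of all genes (median 0.072). The 2 contrasts against PD-only controls differed for some genes. Hesx1 fell by 4.08 ± 0.09 in 2i and by 0.64 ± 0.09 with YAP/TAZ siRNA. Pax6 fell by 1.55 ± 0.05 in 2i and stood at -0.06 ± 0.05 with YAP/TAZ siRNA, short of the test. Otx2, a factor of the anterior epiblast and forebrain, fell by 1.24 ± 0.03 with YAP/TAZ siRNA and by 1.10 ± 0.03 in 2i (adjusted p = 1.79e-19 and 2.42e-18), the contrasts in which Nkx1-2 and Cdx1 were higher. Gbx2, which opposes Otx2 at the midbrain-hindbrain border, rose by 1.13 ± 0.08 with YAP/TAZ siRNA (adjusted p = 1.03e-10) and by 0.33 ± 0.08 in 2i (adjusted p = 0.00168), the second call being lost with control siRNA 2 alone (adjusted p = 0.14) and with the Actb covariate (adjusted p = 0.424).

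Of 11 Wnt/beta-catenin feedback genes, 5 (45.5%) rose and 1 (9.09%) fell with YAP/TAZ siRNA in PD-only, against 35.5% and 26.3% of all genes. In 2i against PD-only controls, 5 (45.5%) rose and 2 (18.2%) fell, against 31.3% and 26.7% (medians 0.192 and 0.134). Axin2, the destruction complex scaffold that Wnt signalling induces, rose by 1.82 ± 0.04 and by 1.94 ± 0.05 (adjusted p = 1.97e-18 and 1.47e-18), while the gene of the secreted Wnt inhibitor Dkk1 stood at -3.29 ± 0.06 and -4.08 ± 0.06. Axin2 thus stood 0.12 ± 0.04 lower with YAP/TAZ siRNA than in 2i (adjusted p = 0.035), where Cdx1, Cdx2 and Nkx1-2 stood higher, and this call was lost without any 1 of 6 arrays (adjusted p up to 0.0859). Notum, an enzyme that inactivates Wnt proteins, was 0.40 ± 0.03 higher than in 2i (adjusted p = 4.5e-09). Of the 11 genes, 4 (36.4%) rose and 4 (36.4%) fell with YAP/TAZ siRNA against 2i controls, against 25.5% and 22.8% of all genes. Tnfrsf19 stood at -0.73 ± 0.03 there and Dkk1 at 0.78 ± 0.06. Over all alternatives of the processing, Axin2 with YAP/TAZ siRNA against PD-only controls ranged from 1.00 to 1.86.

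The genes on both sides of Nkx1-2 were also higher in the upper arms. Nkx1-2 lies at chr7:132596239-132599637, and among the nearest 2 protein-coding genes on each side, Oat (ornithine aminotransferase), Lhpp (a phosphatase) and Fam53b rose with YAP/TAZ siRNA and in 2i. Lhpp, 11 kb away, read 8.04, 8.16 and 8.21 (lowest, median and highest) with YAP/TAZ siRNA, 8.11, 8.29 and 8.48 in 2i controls, and 6.21, 6.35 and 6.49 in PD-only controls. Fam53b, 112 kb away, read 8.20, 8.28 and 8.40 with YAP/TAZ siRNA, 8.18, 8.25 and 8.34 in 2i controls, and 6.04, 6.12 and 6.26 in PD-only controls. For both genes the upper arms overlapped each other and lay apart from the PD-only controls.

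Lhpp rose by 1.80 ± 0.05 with YAP/TAZ siRNA and by 1.95 ± 0.05 in 2i (adjusted p = 1.82e-17 and 1.08e-17). Fam53b rose by 2.15 ± 0.04 and by 2.12 ± 0.04 (adjusted p = 2.73e-20 and 7.16e-20), and its second probe set by 1.61 ± 0.05 and by 1.51 ± 0.06. Oat, 19.8 kb away on the other side, rose by 1.00 ± 0.02 and by 1.26 ± 0.03 (adjusted p = 2.58e-18 and 1.18e-19). Chst15, a sulfotransferase gene 273 kb away beyond Oat, fell by 1.64 ± 0.06 with YAP/TAZ siRNA and fell by 2.23 ± 0.06 in 2i (adjusted p = 1.21e-15 and 1.6e-17). Farther out, chosen after these values were seen and given without a test, Eef1akmt2 beyond Fam53b stood at 0.33 ± 0.03 and 0.35 ± 0.03. The remaining 13 measured genes within 10 protein-coding genes of Nkx1-2 lay between -0.37 (Bub3) and 0.26 (Tex36) with YAP/TAZ siRNA, and between -0.33 (Bub3) and 0.22 (Ikzf5) in 2i.

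**Figure D5:**
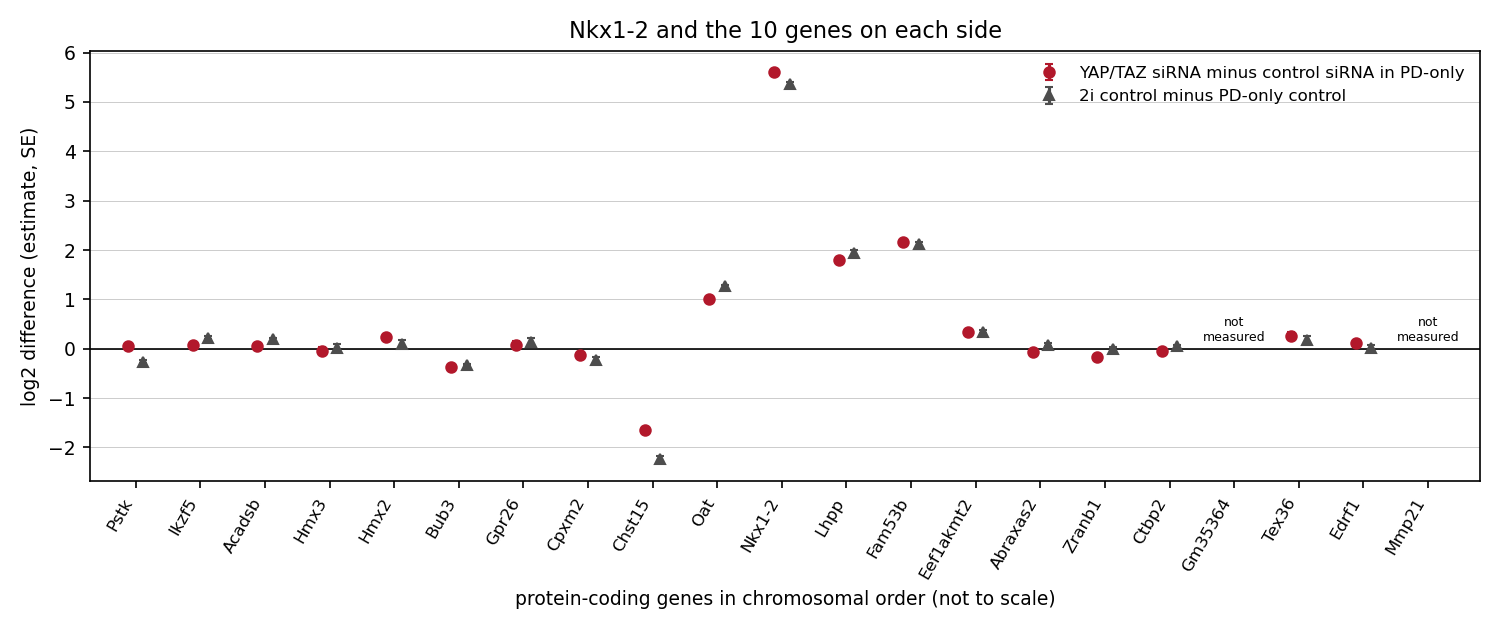
Log2 differences with SE (y axis) of Nkx1-2 and the 10 protein-coding genes on each side in chromosomal order (x axis, not to scale), for YAP/TAZ siRNA against control siRNA in PD-only (red circles) and 2i against PD-only controls (grey triangles). Oat, Nkx1-2, Lhpp and Fam53b lie between 1.00 and 5.60, Chst15 at -1.64 and -2.23, and 2 genes were not measured.

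The neighbours of the other 4 genes changed in both directions or did not pass the test. Over the 17 measured neighbours of all 5 genes, 6 (35.3%) rose and 5 (29.4%) fell with YAP/TAZ siRNA, shares near the 35.5% and 26.3% of all genes. In 2i, 7 (41.2%) rose and 5 (29.4%) fell, against 31.3% and 26.7% (medians 0.073 and 0.020). Beside Cdx1, the transporter gene Slc6a7 rose by 0.49 ± 0.05 and by 0.39 ± 0.05, while the receptor gene Pdgfrb fell by 1.63 ± 0.07 and by 1.70 ± 0.08. Beside Cdx2, Flt3 and Gsx1 passed the test in neither contrast, and Pdx1 rose in 2i by 0.21 ± 0.05 (adjusted p = 0.00256). Beside Sp8, its relative Sp4 rose by 0.62 ± 0.06 and by 0.73 ± 0.06, and the integrin gene Itgb8 fell by 1.32 ± 0.11 and by 1.28 ± 0.11.

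The genes whose profile over the 22 arrays was most like each of the 5 were sought among 1226 genes. These had an SD of at least 0.5 and no predicted name. Cdx2 (SD 0.471) and Evx1 varied less than that themselves, so genes that varied as little were not searched. The arrays fall into 3 arms, so a correlation here is mostly one of arm means and is given as a description. Slc18b1 (a polyamine transporter; r = 0.998), Cdo1 (cysteine dioxygenase; r = 0.998) and Fam53b, the neighbour described above, were most like Nkx1-2. Cdx1 was matched by Notum (r = 0.991), Zfp428 (r = 0.987) and Mia (r = 0.9865). Sp8 was matched by Mgst1 (a glutathione transferase; r = 0.983), BC080696 (r = 0.972) and Mpzl2 (an adhesion protein; r = 0.967), which stood at -0.64, -0.78 and -0.77 with YAP/TAZ siRNA and at 0.60, 0.68 and 0.65 in 2i. For Cdx2 the closest was Apol6 (r = 0.957), and for Evx1 Has3, a hyaluronan synthase (r = 0.829). Evx1, the gene with the smallest SD over the arrays (0.331), had the weakest match.

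Markers of other cell types were measured beside these genes. The array mean over 10 ES cell markers was 12.28 to 12.32 with YAP/TAZ siRNA, 12.36 to 12.41 in 2i controls and 12.19 to 12.22 in PD-only controls. Of these bright genes, 4 (40%) rose and 4 (40%) fell with YAP/TAZ siRNA in PD-only, against 35.5% and 26.3% of all genes. In 2i against PD-only controls, 6 (60%) rose and 4 (40%) fell, against 31.3% and 26.7%. Their median differences were 0.040 and 0.205, and Pou5f1 rose by 0.43 ± 0.03 in both contrasts. Of 15 trophoblast markers, 3 (20%) rose and 8 (53.3%) fell in each contrast against PD-only controls, in both of which Cdx2 was higher, against 35.5% and 26.3% of all genes with YAP/TAZ siRNA and 31.3% and 26.7% in 2i. The array mean over the list was 6.31 to 6.40 with YAP/TAZ siRNA, 6.23 to 6.31 in 2i controls and 7.55 to 7.63 in PD-only controls. Krt8, a keratin of simple epithelia, fell by 5.80 ± 0.03 with YAP/TAZ siRNA and by 6.67 ± 0.03 in 2i, Gata3, a trophoblast factor, fell by 3.13 ± 0.05 and by 2.49 ± 0.06, and Tfap2a, a factor of trophoblast and other ectoderm, rose by 1.27 ± 0.05 and by 2.56 ± 0.05. The defining gene Elf5 was dim, averaging 3.65, 3.60 and 3.54. Of 13 intestinal markers, 3 (23.1%) rose and 1 (7.69%) fell with YAP/TAZ siRNA, against 35.5% and 26.3% of all genes. In 2i, 4 (30.8%) rose and 0 (0%) fell, against 31.3% and 26.7%. This list was dim, with an array mean of 4.508 to 4.654 with YAP/TAZ siRNA, 4.504 to 4.612 in 2i controls and 4.282 to 4.372 in PD-only controls. Shares called among genes of like level were not compared. Slc15a1, the intestinal peptide transporter, rose by 2.44 ± 0.07 and by 2.13 ± 0.07 (adjusted p = 1.86e-17 and 3.95e-16), and its arms stood in the order of Cdx1: 6.85 ± 0.11 with YAP/TAZ siRNA, 6.54 ± 0.14 in 2i and 4.40 ± 0.14 in PD-only controls. Hnf4a rose by 0.72 ± 0.06 and by 0.53 ± 0.07. With all probe sets of the suffix _x_at or _s_at left out, Hnf4a stood at 0.15 and 0.13 (adjusted p = 0.113 and 0.177). The defining genes Muc2 and Isx did not pass the test.

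Of 9 fibroblast markers, 0 rose and 7 fell with YAP/TAZ siRNA, and 0 rose and 8 fell in 2i against PD-only controls, that is 77.8% and 88.9% that fell, against 26.3% and 26.7% of all genes. Their array mean was 4.65 to 4.82 with YAP/TAZ siRNA, 4.58 to 4.81 in 2i controls and 6.44 to 6.56 in PD-only controls, and Col1a2 fell by 4.5 ± 0.08 and by 4.56 ± 0.08. The Actb 3′ minus 5′ signal was 0.975 ± 0.062 with YAP/TAZ siRNA, 0.966 ± 0.10 in 2i and 0.717 ± 0.035 in PD-only controls (SD). With that signal as a covariate, the difference for YAP/TAZ siRNA against PD-only controls was 5.69 for Nkx1-2, 2.12 for Cdx1, 0.91 for Cdx2 and -1.04 for Sp8. The part of the marker genes in the values of the 5 genes was not tested. In such bulk RNA, fewer cells that express a gene and less RNA of it per cell cannot be told apart. The siRNA targets Yap1 and Wwtr1 (TAZ) were at 41.4% and 48.7% of their PD-only control levels, with adjusted p = 2.61e-18 and 5.32e-17.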

How the data were processed

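Biotin-labelled cRNA of 22 cultures was read on 1-colour Affymetrix arrays, per the labels' protocols. The values deposited by the authors are log2 expression per probe set, made with RMA per the submitters' processing notes; its version is not given in the sources used here. No scan batch is known, so batch and arm cannot be told apart. The signal of the poly-A spike-in controls, a technical measure, was 8.82 to 9.25 over 2i controls. It was 8.27 to 8.63 with YAP/TAZ siRNA and 8.17 to 8.68 over PD-only controls, so 2i controls did not overlap the other arms. Its part in the differences from 2i controls was not tested. Of 45101 probe sets, 34945 had 1 gene symbol and gave 18193 genes.

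With limma 3.58.1 in R 4.3.3 (16 residual and 3.1 prior degrees of freedom; tested on simulated data) the model held 1 mean per siRNA and medium, and an arm was the equal-weight mean of its 2 siRNAs. A gene passed the test at an adjusted p (Benjamini-Hochberg, all genes) of 0.05. In the text ± after a difference is the model SE and after a level the SD over arrays. Replicates are labelled biological and not described further, so p-values measure the spread between these samples. No 2 arrays were identical (lowest correlation within an arm 0.9977).

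The 5 genes and all lists (paralogs, Hox, streak and tail bud, anterior, Wnt feedback, and intestinal, trophoblast, fibroblast and ES cell markers) were chosen with earlier results of these data known. The naming rule took the 5 genes, their paralogs, their called neighbours, the 3 genes most like each, T, Cdx4, Wnt3a, Fgf8, Axin2 and Pou5f1. It also took up to 4 called genes with the largest differences per list and contrast. Not every gene that it took is given in the text, and other genes were named after their values were seen. Promoters are RefSeq's (GRCm38.p6). Figures used matplotlib 3.10.9.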

Additional observations from a re-analysis of the deposited data

Results flagged for a closer look

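Among 35 sets of arrays (arms, and groups of 4 arrays of 1 siRNA and medium, for the 5 genes), 3 held an array that had a gap to its nearest array above Dixon's critical value, which chance gives in about 1 group in 20. Cdx2 in PD-only controls had 1 array of control siRNA 1 at 5.73, against 5.31 for the next, and this array stood apart both in the arm of 7 and in its group of 4. Nkx1-2 in PD-only controls had 1 array of control siRNA 2 at 3.69, against 3.46 for the next; without it, Nkx1-2 was 5.64 ± 0.03 higher with YAP/TAZ siRNA and 5.40 ± 0.03 higher in 2i than in PD-only controls.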

How the results depend on the processing

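With 1 array left out, all 330 differences of the 5 genes between arms moved by less than the spread between replicates (1 SD). Leaving out 1 array cannot move an arm mean by 1 SD in this design, so that count was fixed in advance. The differences of Nkx1-2 then ranged from 5.58 to 5.64 with YAP/TAZ siRNA and from 5.34 to 5.40 in 2i. Of 171 differences under the other alternatives, 154 moved by less than 1 SD. Only Evx1 in 2i changed sign (-0.0033 with siRNA 2 alone, against 0.07). Those that moved were, for YAP/TAZ siRNA against PD-only controls, Nkx1-2 (2.17) and Cdx2 (0.76) over the mean of all probe sets, Sp8 with siRNA 1 alone (-0.99) and siRNA 2 alone (-0.74), and, with the Actb 3′ minus 5′ covariate, Nkx1-2 (5.69), Cdx1 (2.12), Cdx2 (0.91) and Sp8 (-1.04). For 2i against PD-only controls they were Nkx1-2 over the mean of all probe sets (2.03), with siRNA 1 alone (5.44) and siRNA 2 alone (5.29), and, with the covariate, Nkx1-2 (5.45), Cdx1 (1.59), Cdx2 (0.40) and Sp8 (0.42). For YAP/TAZ siRNA against 2i they were Nkx1-2 (0.14) and Cdx2 (0.29) over the mean of all probe sets. Among named genes that passed the test, only Hoxb9 changed sign under an alternative: 0.30 with YAP/TAZ siRNA and 0.45 in 2i became -0.19 (adjusted p = 0.3) and -0.031 (adjusted p = 0.89) with the covariate. Counts of genes called stayed within 1.5 times of the main count, except that the trend and robust prior called 1 gene between control siRNAs in PD-only and 2 in 2i, against 0. That band is wide: with the covariate, 8204 genes were called for YAP/TAZ siRNA, against 11250, and 7796 for 2i, against 10559. With siRNA 2 alone, which has fewer arrays, 7983 were called for 2i. The causes were not tested, and the Actb signal of the PD-only controls did not overlap that of the other arms. Replicate letters did not pair the arrays (residual correlations of same-letter arrays -0.0771 to 0.124, median 0.00182); with a replicate block, 11261 genes were called for YAP/TAZ siRNA, 10542 for 2i and 8714 between them, 0 between siRNAs, Nkx1-2 stood at 5.60 and Sp8 at -0.86 with YAP/TAZ siRNA. Cdx1, Cdx2 and Evx1 averaged below the median gene (6.64) in every arm and had no value with dim genes left out.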
